A study of Homo sapiens with 10 samples.

Results

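The broad acetylated domains of untreated H1975 cells were the stretches of chromatin that lay under a peak of histone H3 lysine acetylation (H3K27ac) at least 3000 bp wide in each of the 3 DMSO libraries. H1975 is an established human lung adenocarcinoma line whose growth depends on a mutant EGFR kinase. Members were chosen by peak width alone: a region of 502 bp from the annotated count table counted as a member when it lay wholly inside such a peak in all 3 DMSO peak lists. The rule found 3744 members among 67387 annotated regions (5.56%) and 169637 regions in all. Regions inside 1 stretch common to the DMSO peaks were joined, which gave 1401 domains, and their nearest genes numbered 1224 of the 15633 genes in the annotation (7.83%). H3K27ac was measured by chromatin immunoprecipitation and sequencing in 3 groups of 3 biological replicates of this 1 line. The DMSO cells spent 21 drug-free days in culture followed by 3 days with DMSO. The drug-tolerant persister (DTP) cells were those that survived 24 days of osimertinib, which inhibits mutant EGFR, at 500 nM. The third group, DTP + AZD5153, received osimertinib at 500 nM for 21 days and AZD5153, a bromodomain inhibitor, at 150 nM for 3 days. Whether osimertinib went on beside AZD5153 is not given, so that AZD5153 and a stop of osimertinib cannot be told apart. A pooled input library stood for chromatin without antibody. The labels and count columns name H1975 for every library, but the peak list of DTP replicate 3 carries the name of another lung line, H1875, and which name is right was not tested. Over all regions that library correlated at 0.818 and 0.835 (Spearman) with the other DTP libraries, which correlated at 0.822 with each other. The −log10 p values of that peak list followed the counts of DTP replicate 3 more closely than those of any other library (r = 0.835 across annotated regions, each centred over the 9 libraries).

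H3K27ac sits on nucleosomes at active promoters and enhancers, where acetyltransferases such as EP300 and CREBBP place it and bromodomain proteins bind acetylated histones. Most peaks cover a single nucleosome-free site and its flanks, whereas broad stretches of the mark often cover clustered enhancers or the promoters of highly transcribed genes, and in many cell types they lie near genes that set cell identity. The mark is measured per region and gives neither transcription nor the gene that an enhancer serves, so that a gene name here means the nearest gene in the annotation.

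Promoters of 5 genes are printed to show what the domains hold at their start sites: RUNX1 and MIR31HG head domains among the widest, and FOSL2, YAP1 and TGFB2 encode factors of the AP-1 and YAP/TEAD circuits and a ligand that are described with their groups further on. Each run has 300 bases, from 250 before to 50 after the start site, in the direction of the gene, from RefSeq on GRCh38.p14, whose primary chromosomes are those of hg38. Capitals mark matches, on either strand, to the AP-1 letters TGANTCA or the TEAD letters GGAATG. A match on the opposite strand of the latter reads CATTCC, and no matches overlap here.
RUNX1 (chr21:34888650-34888949, minus strand): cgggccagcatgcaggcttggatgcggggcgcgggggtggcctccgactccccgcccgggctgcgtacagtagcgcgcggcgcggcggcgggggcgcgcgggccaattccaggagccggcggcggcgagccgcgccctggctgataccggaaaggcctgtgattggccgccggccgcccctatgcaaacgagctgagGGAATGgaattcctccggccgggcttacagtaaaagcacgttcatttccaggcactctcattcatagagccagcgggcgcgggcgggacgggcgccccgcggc
MIR31HG (chr9:21559749-21560048, minus strand): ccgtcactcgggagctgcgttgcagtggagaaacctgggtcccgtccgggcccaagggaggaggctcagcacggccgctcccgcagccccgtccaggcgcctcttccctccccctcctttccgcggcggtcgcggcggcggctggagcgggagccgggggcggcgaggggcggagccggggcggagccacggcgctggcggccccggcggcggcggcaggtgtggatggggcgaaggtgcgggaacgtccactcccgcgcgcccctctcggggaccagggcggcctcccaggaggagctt
FOSL2 (chr2:28392608-28392907, plus strand): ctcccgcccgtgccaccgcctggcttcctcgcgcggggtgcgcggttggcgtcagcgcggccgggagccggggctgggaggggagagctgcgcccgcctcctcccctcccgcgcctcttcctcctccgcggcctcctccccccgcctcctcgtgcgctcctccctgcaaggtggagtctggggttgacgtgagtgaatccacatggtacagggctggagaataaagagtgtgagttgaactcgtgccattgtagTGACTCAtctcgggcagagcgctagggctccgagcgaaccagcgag
YAP1 (chr11:102110197-102110496, plus strand): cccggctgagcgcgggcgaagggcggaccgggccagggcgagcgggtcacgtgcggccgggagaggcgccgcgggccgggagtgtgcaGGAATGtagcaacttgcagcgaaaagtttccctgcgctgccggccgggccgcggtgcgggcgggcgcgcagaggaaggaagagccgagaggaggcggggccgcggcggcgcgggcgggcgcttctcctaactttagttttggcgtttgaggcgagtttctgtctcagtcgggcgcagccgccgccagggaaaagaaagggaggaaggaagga
TGFB2 (chr1:218345086-218345385, plus strand): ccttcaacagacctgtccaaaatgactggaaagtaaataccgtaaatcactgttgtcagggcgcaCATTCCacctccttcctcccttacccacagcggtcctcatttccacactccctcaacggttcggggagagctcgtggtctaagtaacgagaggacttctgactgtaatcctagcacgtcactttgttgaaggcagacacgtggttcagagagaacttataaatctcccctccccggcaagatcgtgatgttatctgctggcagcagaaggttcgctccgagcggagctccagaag
The AP-1 letters were found once in the FOSL2 window and the TEAD letters once each in the RUNX1, YAP1 and TGFB2 windows, and neither was found in that of MIR31HG. Over the 670 RefSeq promoter windows that lay wholly inside a domain, 15.5% held the AP-1 letters, against 7.71% of all 35116 windows. The TEAD letters were in 13.4% against 14.03%. The median window inside a domain held 22 CpG dinucleotides, and the median of all windows held 14. Windows of neighbouring start sites can overlap, and a match is only a run of letters. Promoters inside narrower DMSO peaks were not counted apart, so these shares are not shown to be particular to broad domains.

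Of 1562 microRNA hairpins in the RefSeq table, 22 lay wholly inside a broad domain, in 20 domains. The mature sequences below are those named in the text, with the seed (bases 2 to 8) in capitals.
hsa-miR-21-5p: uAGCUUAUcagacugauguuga
hsa-miR-200c-3p: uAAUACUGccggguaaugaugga
hsa-miR-141-3p: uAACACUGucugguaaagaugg
hsa-miR-5008-3p: cCUGUGCUcccagggccucgc
hsa-miR-6737-3p: uCUGUGCUucaccccuacccag
hsa-miR-583: cAAAGAGGaaggucccauuac
The hairpin of miR-21, a widely studied growth-promoting microRNA, lay in a domain at the end of VMP1. The hairpins of miR-200c and miR-141, which restrain ZEB factors in epithelial cells, shared 1 domain of 3834 bp at MIR200CHG. The 3p arms of miR-5008 and miR-6737, from domains at WNT9A and SLC39A1, shared the seed CUGUGCU. Acetylation around these hairpins went separate ways. The MIR21 domain held 47.2, 60.4 and 38.0 CPM per region in DMSO and 50.6, 62.9 and 48.1 in DTP, ranges that overlapped. The MIR583 domain held 14.4, 22.4 and 15.3 CPM in DMSO and 6.26, 3.49 and 5.06 in DTP, with no overlap. CPM are counts per 1000000 of the TMM-scaled library total, averaged over the 502 bp regions of a domain, so that levels of different domains share 1 length.

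The H3K27ac libraries held 6263443 to 10463351 counts over all regions and the input held 1870885. Replicate 3 of DTP + AZD5153 stood apart: over all regions its Spearman correlations with the other replicates of its group were 0.354 and 0.430, where those 2 correlated at 0.890 with each other. It was the shallowest library, 66.7% of its annotated counts lay within 1 kb of a start site (40.3% to 59.8% in the other 8), its median member held 51 counts, and 12 members held none. The counts of calls, list medians and domain ratios of this group are therefore given with and without it, or beside the value of each library. Counts reached at most 1148 in any region, just under the 1152 that 1 read per position and strand would allow, and 591 members passed 50% of that limit in some library, so that the highest levels may be compressed. The labelled cell type was checked on markers: all 6 lung epithelial markers had annotated regions and 3 of them (KRT7, KRT8, KRT19) lay in domains, and of the markers of other cells 0 of 3 for T cells, 1 of 3 for B cells, 2 of 3 for myeloid cells, 3 of 3 for endothelium and 2 of 3 for fibroblasts had annotated regions, none of them in a domain.

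The domains had a median width of 3658 bp, from 1033 to 18287 bp. Single-region domains numbered 219, 699 held at least 3 regions, 237 were at least 5000 bp wide and 15 at least 10000 bp. A region within 1 kb of a start site was present in 612 domains (43.7%), and the other 789 had none. Introns held 33.7% of the members and promoters within 1 kb 30.7%, against 31.6% and 36.1% of all annotated regions, and distal intergenic sequence held 16.1% against 17.2%. Regions 1 to 2 kb from a start site made up 8.17% of the members and 5.62% of all annotated regions. Chromosome 14 had the highest share of its annotated regions inside domains, 7.95%, and chromosome 4 the lowest, 3.13%. The median member there held 22 and 11 input counts. On chromosomes 15 and 19, with shares of 7.01% and 3.15%, it held 11 and 17. Whether the shares go with input depth was not tested. In the input the median member held 15 counts and the median annotated region 13, and 15 members (0.401%) held at least 50, against 0.187% of annotated regions.

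The rule cut through a continuum of widths. In order of the narrowest of the 3 DMSO peaks around a region, the median DMSO level went from 12.3 CPM in peaks under 1000 bp to 20.7 at 2800 to 3000 bp, 23.3 at 3000 to 3200 bp and 26.3 above 10000 bp. The median DTP level was 15.8 CPM just under the threshold and 16.8 just over it. Nearest inside, at 3001 bp, were regions at TAB3, RAMP1 and CAMK2D with DMSO means of 18.2 to 27.8 CPM. Nearest outside, at 2998 and 2999 bp, were, among others, regions at MPRIP and RRM2 with DMSO means of 13.3 to 46.2 CPM. Levels on both sides of the threshold overlapped.

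**Figure D1:**
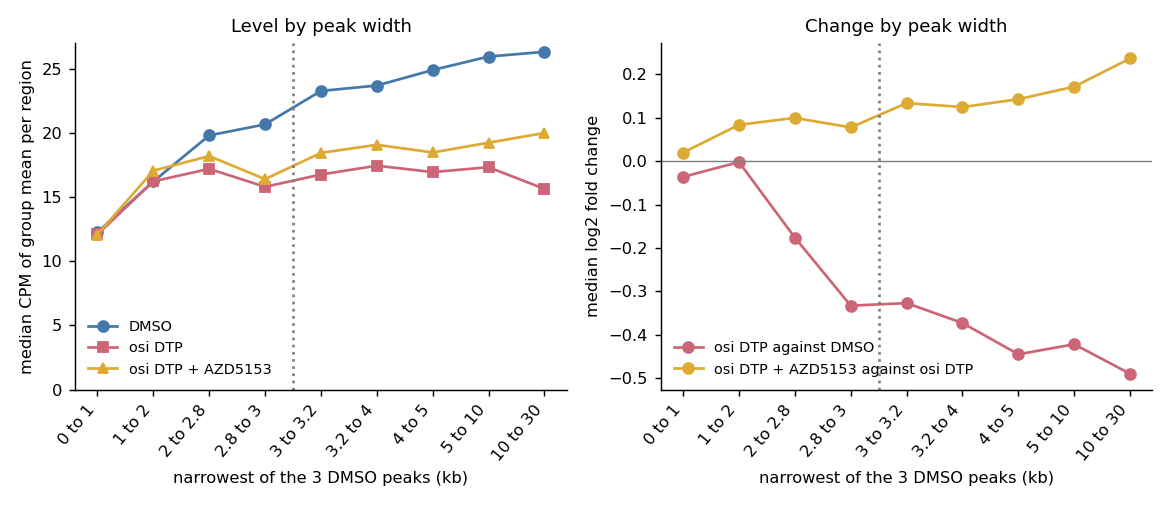
Annotated regions inside a peak in each DMSO list, grouped by the narrowest of the 3 peaks (kb). Left: median over regions of the group mean CPM in DMSO (blue circles), DTP (red squares) and DTP + AZD5153 (yellow triangles). Right: median log2 fold change of DTP against DMSO (red) and of DTP + AZD5153 against DTP (yellow), with the 3000 bp threshold dotted. The DMSO level reached 26.3 CPM in the widest class where DTP was at 15.7, and the red medians ran from -0.04 to -0.49.

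The widest domain, 18287 bp with 12 regions, lay at SLC2A1, the gene of the glucose transporter GLUT1 (chr1:42930448-42948734 in hg38, intron and promoter). It held 16.04, 22.9 and 20.8 CPM per region in DMSO, 12.6, 13.8 and 14.1 in DTP and 9.50, 13.2 and 14.3 in DTP + AZD5153, so that every treated library was under every DMSO library. The widest peak that wholly held one of its regions had 20448, 18391 and 21759 bp in DMSO and 8881, 9109 and 12661 bp in DTP. The second, of 16907 bp, lay at BCL9L, a beta-catenin co-activator, and held 35.0, 42.2 and 32.8 CPM in DMSO, 39.6, 67.6 and 30.9 in DTP and 36.2, 40.2 and 85.0 in DTP + AZD5153, with overlapping groups. The others of the 10 widest were at MIR5008 and WNT9A (a Wnt ligand), ITGA3 (integrin alpha 3), LOC642648 and the let-7 host MIRLET7BHG, ARHGAP26-AS1, MIR31HG (the host of miR-31), RUNX1 (a transcription factor), MYH9 (non-muscle myosin) and LINC01303.

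Among these 10, the lowest ratios of DTP to DMSO were at ARHGAP26-AS1 and MIR5008. The ARHGAP26-AS1 domain (chr5:142818259-142829254, intronic) held 15.8, 31.5 and 19.6 CPM in DMSO and 4.59, 3.64 and 4.35 in DTP. Its 3 DTP + AZD5153 values were 5.60, 5.03 and 2.03, as low as those of DTP. The widest peak that wholly held one of its regions was at least 11098 bp in each DMSO list and 1810, 0 and 1718 bp in DTP, where 0 means that no peak held one. The MIR5008 and WNT9A domain (chr1:227936504-227947726) held 24.4, 31.8 and 29.8 CPM in DMSO and 9.48, 15.0 and 6.53 in DTP. At MIR31HG (chr9:21551233-21562216), whose promoter is printed above, the DMSO values of 12.4, 16.7 and 12.9 CPM overlapped the DTP values of 9.85, 14.1 and 9.07, while the DTP + AZD5153 values of 18.2, 17.9 and 19.4 were over all of them. RUNX1 (chr21:34881138-34891971) held 18.7, 22.1 and 16.2 CPM in DMSO, 19.2, 36.5 and 13.6 in DTP and 28.5, 28.0 and 56.9 in DTP + AZD5153, with replicate 2 far above the others in DTP and replicate 3 in DTP + AZD5153. ITGA3 overlapped between all groups, and MYH9 was lower in every DTP library (33.4 to 41.4 CPM) than in every DMSO library (42.6 to 49.8 CPM).

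The 10 genes named next carried the most member regions. VMP1, an autophagy gene, had 22 in 5 domains, ANXA2 (annexin A2) 18, TRIO (a guanine nucleotide exchange factor) 17, LINC-PINT and UQCC1 (a complex III assembly factor) 16 each, NRP1 (neuropilin 1, a receptor of semaphorins and VEGF) 14, and CAB39, CDCP1, PRKCH and TGFBI 13 each. They did not move as a block. Mean levels at TRIO were 28.4, 34.2 and 22.7 CPM in DMSO and 30.2, 37.8 and 27.1 in DTP, ranges that overlapped in part. CDCP1, which encodes a transmembrane substrate of Src kinases, held 20.5, 36.1 and 27.3 CPM in DMSO, 9.83, 8.81 and 7.34 in DTP and 6.69, 9.96 and 3.85 in DTP + AZD5153. At CDCP1 6 of 13 regions were called lower in DTP than in DMSO and 10 of 13 in DTP + AZD5153 than in DMSO. CAB39, which scaffolds the kinase LKB1, held 14.3, 23.9 and 19.3 CPM in DMSO and 8.41, 7.27 and 8.80 in DTP, with 3 of 13 regions called. The protein kinase C gene PRKCH and the matrix gene TGFBI had 3 of 13 called each, and NRP1 1 of 14. At VMP1 the domains differed: the one with the miR-21 hairpin had a log2 ratio of DTP to DMSO of 0.15, and that at chr17:59761389-59764759 one of -1.50.

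How the domains stood in DTP cells against DMSO is given as a description, because the DMSO libraries chose the members and a region picked for being wide there will on average be lower elsewhere. With edgeR's quasi-likelihood test and a Benjamini-Hochberg adjusted p under 0.05 over 157919 regions, 453 members (12.1%) were called lower in DTP and 3 higher, where over all tested regions 5.13% were called lower and 5.58% higher. Of the 11352 regions inside narrower DMSO peaks, 8.59% were called lower and 0.167% higher, so few higher calls were not particular to the broad domains. All 9 libraries shared 1 estimate of the spread, and the number of calls leaned on single libraries: without DTP + AZD5153 replicate 3 it was 33 higher and 1020 lower, while without DMSO replicates 1, 2 or 3 it was 263, 23 or 104 lower, and without DTP replicates 1, 2 or 3 152, 119 or 68 lower. The median log2 fold change was -0.41 over members, 0.03 over the 11352 regions inside narrower DMSO peaks and 0.15 over all tested regions. Without DTP replicate 2 these medians were -0.50, -0.34 and 0.09, so the gap between members and narrower peaks leaned on that library. They were -0.26, 0.26 and 0.22 without DTP replicate 1, and -0.33, 0.25 and 0.18 without DTP replicate 3. Every DTP library was under every DMSO library in CPM at 1526 members and over every one at 123, where over all annotated regions the shares were 22.7% and 21.2%. In bulk chromatin, less of the mark per cell and fewer cells that carry it cannot be told apart. The members held 10.1%, 11.3% and 10.5% of all counts in DMSO (10.6 ± 0.617, SD, n = 3), 8.10%, 8.56% and 7.93% in DTP (8.20 ± 0.324) and 8.48%, 8.98% and 8.06% in DTP + AZD5153 (8.50 ± 0.463), against 3.40% in the input.

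The same rule was also applied to other libraries. How much of the difference comes with the choice of library was not tested. When the 3 DTP lists chose the regions, 3900 were found in 1468 domains. Of these regions 375 were called higher in DTP than in DMSO and 2 lower, with a median of 0.53. By sign 3105 were higher and 795 lower. Over all tested regions 5.58% were called higher and 5.13% lower. The 3900 regions shared 1553 with the members, 39.8% of the DTP set and 41.5% of the members. When 2 DMSO lists chose the domains, the DMSO library left out kept 73.8% to 93.2% of them at 3000 bp or more, the DTP libraries 50.9% to 67.4% and the DTP + AZD5153 libraries 37.4% to 65.9%. In all 3 rounds each treated library kept fewer than the DMSO library left out. Against that library alone, the median log2 ratio of DTP over the chosen regions was -0.25, -0.54 and -0.23, where over all annotated regions it was 0.28, -0.03 and 0.30. The left-out DMSO library itself had median log2 ratios of -0.40, 0.41 and -0.19 to the mean of the other DMSO libraries over the chosen regions. Over all annotated regions these were -0.19, 0.35 and -0.19, so untreated libraries also differed by such amounts. Broad peaks as such were not fewer after treatment: the lists held 2310 to 3354 peaks of at least 3000 bp in DMSO, 2546 to 3952 in DTP and 2706 to 3558 in DTP + AZD5153.

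Promoters and the rest of the domains differed in this description. Over the 1149 members within 1 kb of a start site the median log2 fold change of DTP against DMSO was 0.06, with 49 called lower (4.27%), while the 466 other regions of domains with a promoter had -0.62 with 12.7% called lower. The 2129 regions of domains without a promoter had a median of -0.64 and 345 called lower (16.2%), and the 601 distal intergenic members had -0.88 and 126 called lower. Over all annotated regions of those classes the medians were 0.35 for promoters within 1 kb and -0.15 for distal intergenic regions. Outermost and inner regions of the domains of at least 3 regions were alike, with medians of -0.62 and -0.63. The members over 50% of the count limit in some library had a median of 0.16 and the 3153 others -0.55. A member high only in a treated library could enter the first set, so the choice itself favours a higher median there. DTP replicate 2 had a higher share of annotated counts at promoters, 59.8%, than replicates 1 and 3 (45.9% and 40.7%), and its part in these medians was not tested.

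Domains of at least 3 regions whose libraries did not overlap between DTP and DMSO numbered 22 higher and 326 lower of 699, where 21.2% and 22.7% of annotated regions did not overlap in those directions. Lowest against DMSO was a domain in the intron of CRYBB3, a lens crystallin gene (chr22:25165134-25168415). It held 22.4, 28.0 and 24.6 CPM in DMSO, 2.78, 1.93 and 1.86 in DTP and 4.57, 2.73 and 6.20 in DTP + AZD5153, a log2 ratio of DTP to DMSO of -3.51. Intronic domains of ABCC4, a drug and nucleotide efflux pump, and SND1, which encodes a nuclease with a Tudor domain, followed at -3.33 and -3.10. ABCC4 held 15.7, 36.7 and 27.2 CPM in DMSO and 3.67, 2.203 and 2.03 in DTP. SND1 held 20.3, 37.6 and 31.6 CPM in DMSO and 4.30, 2.16 and 3.99 in DTP. In these 3 domains no DTP peak wholly held a member region, and each had 3 of its 3 regions called lower. B3GALT5 (a galactosyltransferase), TMEM131 and NAALADL2 had ratios of -3.08, -3.02 and -2.95.

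The highest ratio was at MTUS1, which encodes a microtubule-associated protein known as a tumour suppressor candidate. Its domain held 6.56, 8.396 and 5.41 CPM in DMSO, 18.7, 35.2 and 22.9 in DTP and 29.8, 37.5 and 36.03 in DTP + AZD5153, with peaks of 3278 to 4362 bp in DMSO and 6131 to 6981 bp in DTP. At its start site the counts were 107, 92 and 63 in DMSO and 253, 492 and 225 in DTP (log2 fold change 2.17, adjusted p = 0.031 by edgeR), and a second MTUS1 region was called with 1.99 (adjusted p = 0.0331). The third and last member called higher was a promoter region of AOPEP, an aminopeptidase gene, with counts of 197, 143 and 151 in DMSO and 436, 442 and 481 in DTP (1.66, adjusted p = 0.0326). With replicate number as a block 2 members were called higher, and without any 1 of the DMSO replicates none was. SNX18 (a sorting nexin), PAWR (a pro-apoptotic gene), PHLDB2 (a cortical microtubule anchor), SLC28A1 (a nucleoside transporter) and NABP1 (a single-strand DNA binding protein) followed with domain log2 ratios of 1.45, 1.22, 0.99, 0.93 and 0.80 and no region called. SNX18 held 15.9, 17.5 and 14.8 CPM in DMSO and 34.1, 67.9 and 29.3 in DTP. PAWR held 12.29, 12.49 and 9.62 CPM in DMSO and 18.04, 43.65 and 18.17 in DTP. In both domains DTP replicate 2 stood far above replicates 1 and 3, so the size of these ratios leaned on it.

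**Figure D2:**
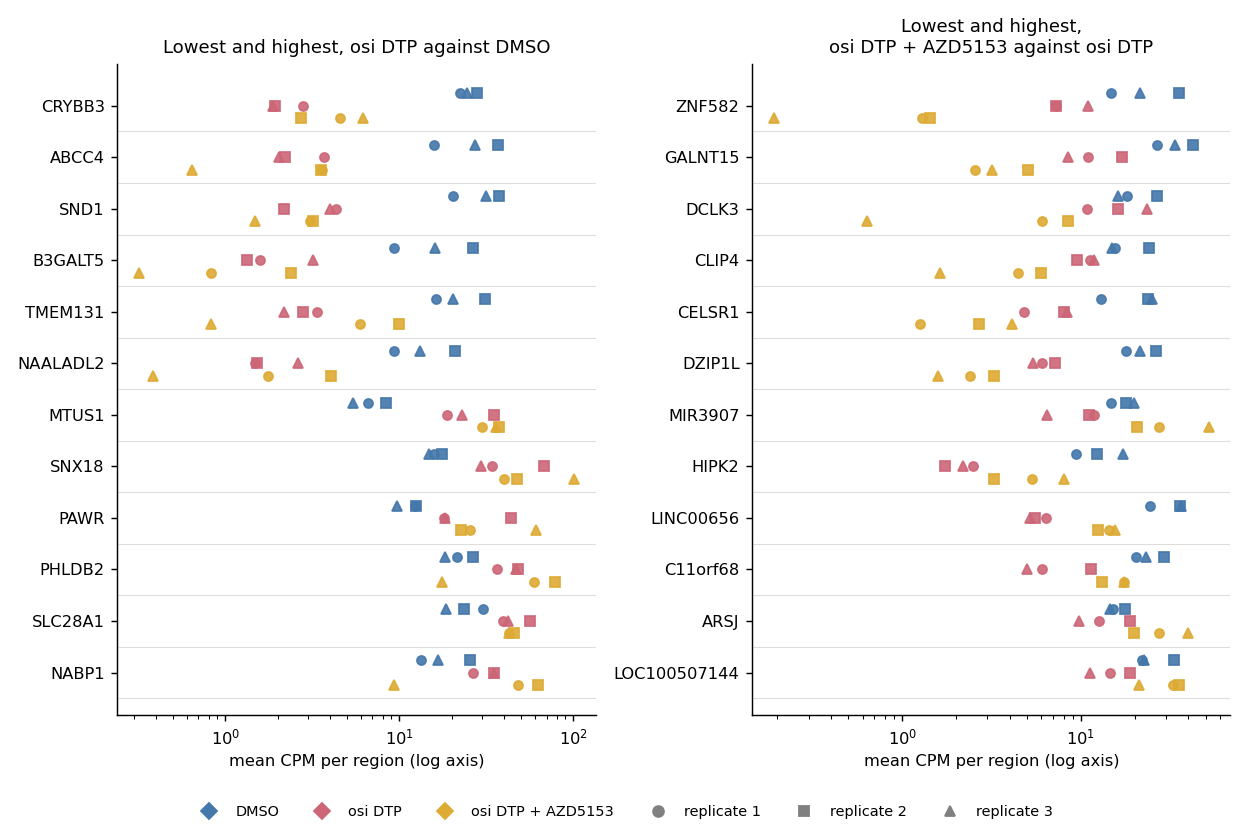
Domains of at least 3 regions with the most extreme log2 ratios among those whose libraries did not overlap, in each comparison. Points are libraries (mean CPM per region, log axis), colours are groups (blue DMSO, red DTP, yellow DTP + AZD5153) and shapes are replicates. CRYBB3 lay at 22.4 to 28.0 CPM in DMSO and 1.86 to 2.78 in DTP, and ZNF582 lay at 7.24 to 11.02 in DTP and 0.19 to 1.42 in DTP + AZD5153.

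The genes of known pathways that carried domains were read from lists. Beside the calls of each list stand the 12.1% of all members and 5.13% of all tested regions called lower in DTP. Of 22 annotated EGFR and MAPK output and feedback genes, 6 carried 18 member regions: PHLDA1, EPHA2, DUSP4, DUSP5, FOSL1 and SPRY2. Their median was -1.22 in DTP against DMSO (all members -0.41), with 3 regions called lower, 2 at PHLDA1 and 1 at DUSP5. PHLDA1, a gene induced by ERK signalling, held 18.9, 29.5 and 22.3 CPM in DMSO, 7.597, 10.9 and 10.8 in DTP and 20.3, 22.4 and 14.4 in DTP + AZD5153. DUSP4, a phosphatase that dampens ERK, held 22.5, 26.2 and 22.2 CPM in DMSO, 8.88, 16.3 and 3.63 in DTP and 14.3, 12.8 and 23.5 in DTP + AZD5153. The single SPRY2 region, by contrast, held 24.4, 22.9 and 21.9 CPM in DMSO and 29.5, 69.0 and 28.3 in DTP, so the list was not uniform. The receptor tyrosine kinase genes had 4 of 9 with domains and 28 regions, of which 11 were at EGFR and 9 at MET, with a median of -0.35 and 1 region called lower. The 4 EGFR domains differed: that at chr7:55107014-55110901, with 3 regions within 1 kb of a start site, held 16.8, 20.3 and 14.6 CPM in DMSO and 5.88, 4.99 and 6.82 in DTP. The widest EGFR domain, 7831 bp in an intron, held 42.0, 54.2 and 47.3 CPM in DMSO and 38.4, 59.6 and 43.2 in DTP, which overlapped.

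Factors of the AP-1 and YAP/TEAD circuits split. AP-1 genes with a domain were FOSL2, JUN, JUNB and FOSL1 (4 of 12, 8 regions, median 0.53, none called). FOSL2 held 31.1, 34.1 and 29.1 CPM in DMSO and 45.3, 85.5 and 36.8 in DTP, with no overlap, and JUN held 18.9, 32.1 and 22.0 in DMSO and 10.3, 11.8 and 11.5 in DTP, also with none, in the other direction. Of the 20 YAP, TAZ and TEAD genes and targets, 8 had a domain (34 regions, median 0.02), and 9 regions were called lower: 7 of 10 at WWTR1, which encodes TAZ, and 2 of 3 at NUAK2, a kinase gene that YAP targets. WWTR1 held 22.9, 35.4 and 27.2 CPM in DMSO, 8.41, 7.34 and 6.84 in DTP and 11.4, 11.3 and 6.04 in DTP + AZD5153. YAP1, its paralogue, held 23.4, 27.1 and 18.6 CPM in DMSO and 26.3, 52.6 and 17.6 in DTP, which overlapped. At TGFB2, a TGF-beta ligand, the values were 32.8, 47.0 and 35.8 CPM in DMSO and 46.3, 74.6 and 55.7 in DTP.

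Epithelial and lung identity genes had 6 of 24 with a domain (GRHL2, KLF6, KRT19, KRT7, KRT8, SOX4), with 23 regions, a median of 0.00 and 2 regions called lower, both at GRHL2, an epithelial transcription factor. KRT7 held 31.5, 53.1 and 48.5 CPM in DMSO and 35.8, 90.0 and 63.0 in DTP. The mesenchymal list had 1 of 8, SNAI1, with 12, 11.6 and 11.9 CPM in DMSO and 6.09, 5.198 and 4.24 in DTP and no region called. The NF-kappaB list had IL6 and CXCL8 (2 of 10, 5 regions, median -0.56), and the growth arrest and p53 list GADD45B and CDKN1B (2 of 10, 8 regions, median 0.52, all 8 with a higher sign), with none called in either. Of those 8 growth arrest regions, 7 were at GADD45B, in 2 domains, so they mostly describe 1 gene. GADD45B also counted in the YAP and TEAD list. Housekeeping genes had 4 of 13 (10 regions, median 0.24) and ribosomal protein genes 6 of 70 (11 regions, median 0.07), with none called. With a loess offset in place of TMM these medians were -0.15 and -0.19. The epithelial list then had -0.30, the AP-1 list 0.21 and the growth arrest list 0.34, against -0.53 over all members, so medians near 0 depended on the scaling.

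Noncoding and histone genes made up the larger lists. MicroRNA genes with a domain were 53 of 495 (10.7%, where 7.83% of all genes had one), with 170 regions, a median of -0.87 and 35 called lower. Their host genes among them were 6 of 22, with 30 regions and a median of -1.09. Long noncoding genes were 136 of 1421 (9.57%), with 406 regions, a median of -0.56 and 66 called lower. LINC00398 held 10.7, 19.7 and 14.9 CPM in DMSO and 2.11, 4.11 and 3.87 in DTP, with 5 of its 7 regions called lower. Of 53 histone genes, 21 carried 45 regions, 27.6% of their annotated regions, where members were 5.56% of all. Their median was -0.67, with 42 of 45 of a lower sign and 2 called. Histone genes lie in clusters, so that neighbouring regions share a domain. These lists were compared with the members only by counts and medians. Of all members 12.1% were called lower, and of all tested regions 5.13%, and whether a list departs from these shares was not tested.

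**Figure D3:**
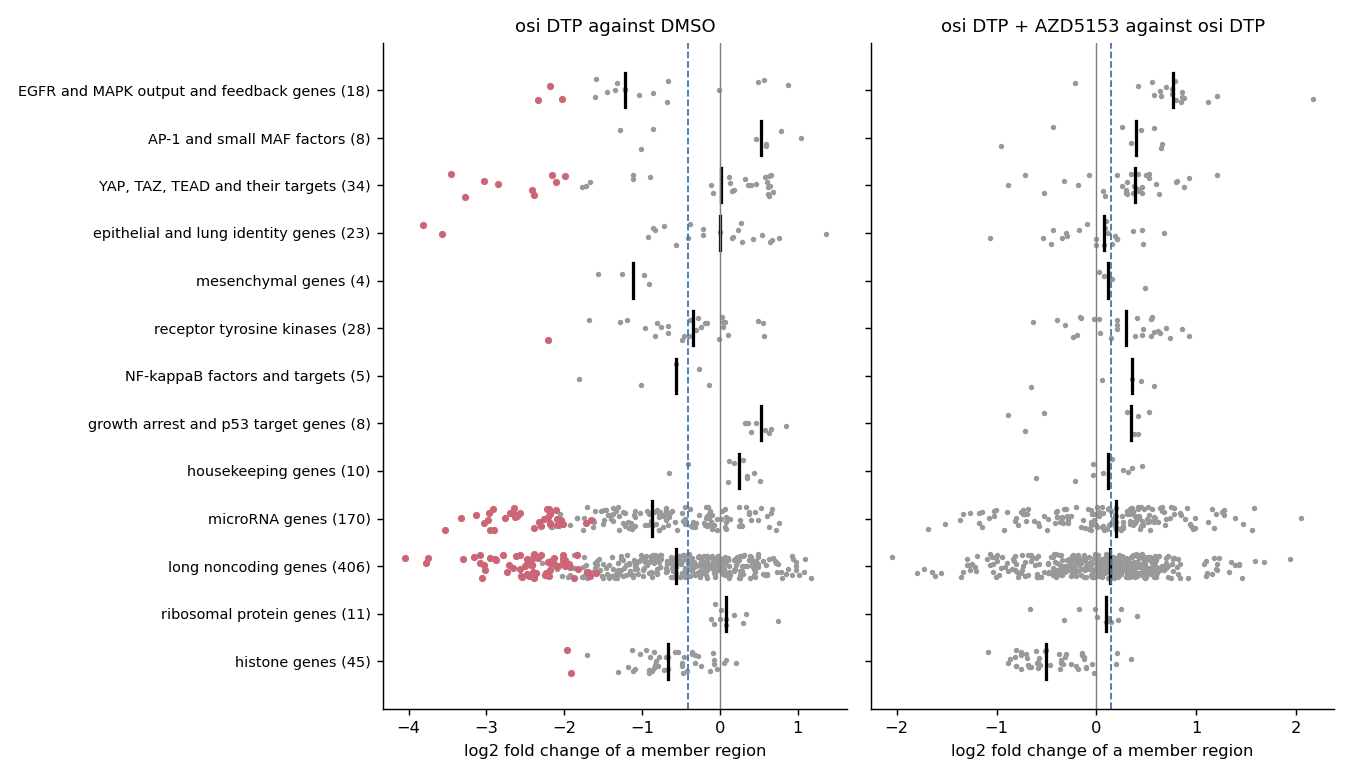
Log2 fold changes of member regions by gene list (number of regions in brackets), DTP against DMSO on the left and DTP + AZD5153 against DTP on the right. Each point is a region, red where edgeR's adjusted p was under 0.05, the black bar is the list's median and the dashed line the median over all members (-0.41 left, 0.15 right). EGFR and MAPK genes had a median of -1.22 on the left and 0.77 on the right, and histone genes -0.67 and -0.50.

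Which domains stayed broad was counted per treated library. A peak of at least 3000 bp still covered a member of 941, 818 and 948 of the 1401 domains in the DTP lists (902 ± 73.1, SD, n = 3) and of 915, 825 and 621 in the DTP + AZD5153 lists (787 ± 151). The difference of -115 domains was within the spread (exact permutation test over libraries, two-sided, p = 0.3, where 0.1 is the smallest p that 3 against 3 allow), and without replicate 3 of DTP + AZD5153 it was -32.3 (p = 0.6). Domains kept in all 6 treated lists numbered 397, those kept in none 245, and 708 were kept in all 3 DTP lists. The median of the DMSO peaks around members was 4045 to 4595 bp wide and that of the DTP peaks 3407 to 3852 bp. In DTP + AZD5153 it was 3703, 3371 and 2653 bp. The median domain was covered by a peak of any width over 97.7%, 89.9% and 98.2% of its length in DTP and over 96.4%, 91.0% and 77.5% in DTP + AZD5153.

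**Figure D4:**
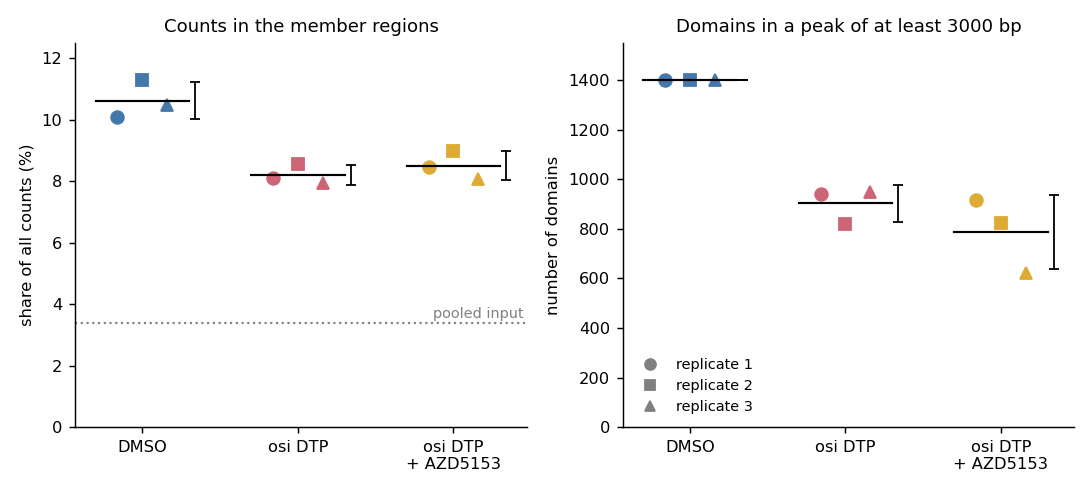
Left: percent of each library's counts that lay in the 3744 members, with the pooled input dotted. Right: number of the 1401 domains with a member inside a peak of at least 3000 bp, which is 1401 in DMSO by the rule. Points are libraries, lines group means and bars 1 SD. DTP libraries lay at 7.93% to 8.56% and DTP + AZD5153 libraries at 8.06% to 8.98%.

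The comparison that the rule did not touch was DTP + AZD5153 against DTP, which asks how acetylation of these domains differed when the last 3 days brought AZD5153, with or without osimertinib. With all 9 libraries edgeR called no member and no other region in either direction (0.0% higher and 0.0% lower of 157919), and 132 members and 7011 of all regions had an unadjusted p under 0.05. DESeq2 called 1 member higher and 3 lower, and 16 higher and 64 lower among all 169637 regions, of which 32915 had no adjusted p. The median log2 fold change was 0.15 over members and 0.06 over all regions. That small gap depended on the scaling, since with plain library sizes the medians were 0.01 and -0.10 and with a loess offset 0.02 and 0.19. The share of counts in members differed by 0.307 percentage points (exact permutation p = 0.5). With the rule set at 5000 bp the shares were 2.36% ± 0.0899 against 2.24% ± 0.0432 (SD, n = 3 each), with every DTP + AZD5153 library over every DTP library and p = 0.1, the smallest that the exact test allows. Libraries did not overlap at 121 members that were higher and 191 that were lower, where over all annotated regions the shares were 3.8% and 5.44%.

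Without replicate 3 of DTP + AZD5153 the remaining libraries gave calls. Over 161758 regions 0.0637% were called higher and 0.0593% lower, and among the members 3 were higher and 6 lower, with a median of 0.14 against -0.17 over all regions. The 3 higher regions were at PHLDA1 and DCBLD2. At PHLDA1 (chr12:76029067-76029568, 2 to 3 kb from a start site) counts were 128, 139 and 119 in DMSO, 37, 8 and 45 in DTP and 175 and 150 in DTP + AZD5153, with 35 in the library left out (log2 fold change 2.49 ± 0.50, SE, adjusted p = 0.0481 by edgeR). At DCBLD2, which encodes a transmembrane receptor, the region at chr3:98982310-98982811 had 231, 290 and 180 counts in DMSO, 65, 26 and 45 in DTP and 245 and 195 in DTP + AZD5153, with 16 in the library left out (2.29 ± 0.46, adjusted p = 0.0481). Its neighbour had 2.43 ± 0.48 (adjusted p = 0.0454). In both genes DTP + AZD5153 replicates 1 and 2 stood near the DMSO counts, and replicate 3 held far fewer.

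DCBLD2 carried 4 domains, in 3 of which every DTP library was under every DMSO library and replicates 1 and 2 of DTP + AZD5153 were over every DTP library. The one at chr3:98961017-98964521 held 26.2, 46.7 and 26.0 CPM in DMSO, 2.42, 2.89 and 1.90 in DTP and 8.84, 9.75 and 0.77 in DTP + AZD5153. The fourth, at chr3:98896746-98901762 with a start site, held 22.3, 26.8 and 23.0 CPM in DMSO and 15.97, 41.8 and 9.59 in DTP, which overlapped.

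The 6 lower regions were at ZNF582, CLIP4, CTDSP1, TYMP and ODF3B. ZNF582, a zinc finger gene, had 2, of which the exonic one (chr19:56384390-56384891) held 213, 478 and 287 counts in DMSO, 115, 77 and 154 in DTP and 18 and 14 in DTP + AZD5153, with 1 in the library left out (log2 fold change -2.85 ± 0.56, SE, adjusted p = 0.0469 by edgeR). Both ZNF582 regions and the CLIP4 region were also called by DESeq2 with all libraries, with adjusted p of 0.00434, 0.00914 and 0.0435, and all 3 DTP + AZD5153 libraries were low there. CLIP4 (chr2:29122516-29123017) held 62, 24 and 64 counts in DTP and 8, 6 and 4 in DTP + AZD5153. At the start sites of CTDSP1, a phosphatase of the RNA polymerase II tail, and of the neighbours TYMP (thymidine phosphorylase) and ODF3B, replicate 3 did not share the low level. CTDSP1 held 266, 419 and 200 counts in DTP and 28 and 20 in DTP + AZD5153, with 87 in the library left out (-3.75 ± 0.58, adjusted p = 0.0276). TYMP held 147, 365 and 106 in DTP and 25 and 16 in DTP + AZD5153, with 77 in the library left out. The member that DESeq2 called higher was at LINC00656 (chr20:23152516-23153017), with 47, 40 and 37 counts in DTP and 197, 121 and 98 in DTP + AZD5153 (log2 fold change 2.07 ± 0.48, adjusted p = 0.0421 by DESeq2).

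**Figure D5:**
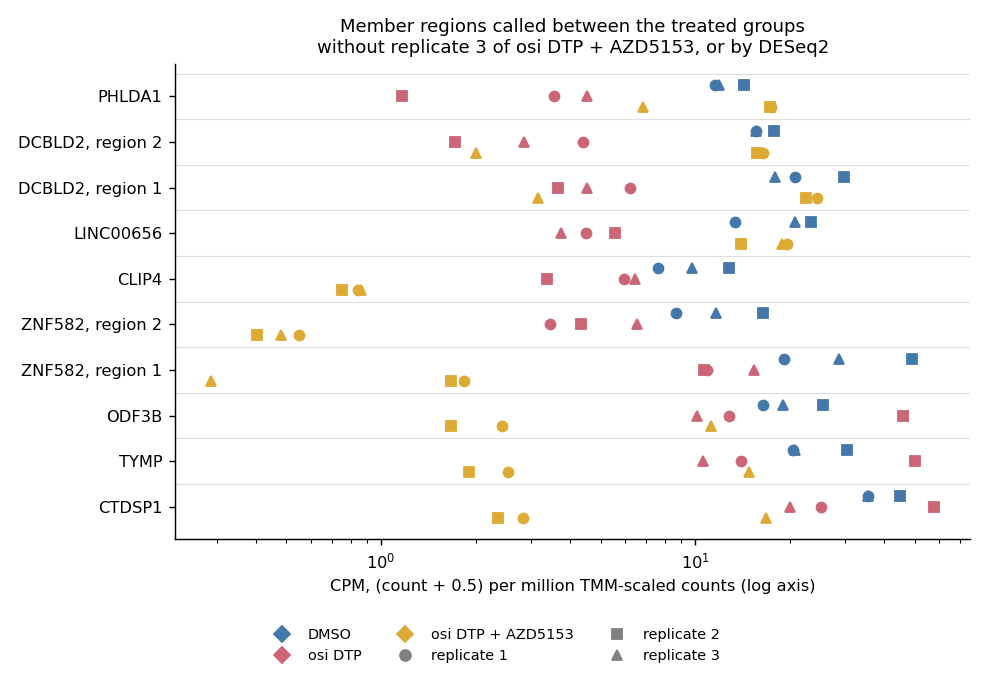
Member regions called between DTP + AZD5153 and DTP without replicate 3 of DTP + AZD5153 by edgeR, or by DESeq2 with all libraries. Points are libraries on a log axis of CPM, with 0.5 added to each count, colours are groups and shapes replicates. At DCBLD2 the replicate 3 triangle of DTP + AZD5153 lies at or under the DTP libraries and at PHLDA1 between them and replicates 1 and 2, whereas at CLIP4 it lies with replicates 1 and 2.

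Of 699 domains of at least 3 regions, 30 were higher and 34 lower without overlap of the 3 libraries, where over all annotated regions the shares were 3.8% and 5.44%, so the domains named next are the extremes of a number near the background. Lowest was ZNF582 (chr19:56382637-56385948), with 14.7, 35.5 and 21.5 CPM in DMSO, 7.24, 7.25 and 11.02 in DTP and 1.291, 1.42 and 0.19 in DTP + AZD5153, a log2 ratio of -3.13 to DTP and -2.65 without replicate 3. GALNT15 (a GalNAc transferase), DCLK3 (a doublecortin-like kinase), CLIP4, CELSR1 (a cadherin of planar polarity) and DZIP1L (a cilium gene) followed at -1.76, -1.73, -1.43, -1.39 and -1.36, and at -1.68, -1.203, -1.05, -1.84 and -1.14 without replicate 3. GALNT15 held 26.6, 42.4 and 33.5 CPM in DMSO, 10.96, 17.1 and 8.49 in DTP and 2.55, 5.04 and 3.19 in DTP + AZD5153, a descent in both steps. Highest was MIR3907 with 11.8, 11.2 and 6.49 CPM in DTP and 27.3, 20.7 and 51.9 in DTP + AZD5153, a log2 ratio of 1.76, or 1.3 without replicate 3. HIPK2 (a kinase that acts on p53), LINC00656, C11orf68, ARSJ (a sulfatase) and LOC100507144 followed at 1.37, 1.31, 1.10, 1.08 and 1.00, and at 1.00, 1.24, 1.03, 0.78 and 1.199 without replicate 3. The LINC00656 domain (chr20:23146203-23153228) held 24.4, 35.7 and 36.1 CPM in DMSO, 6.35, 5.53 and 5.19 in DTP and 14.5, 12.4 and 15.5 in DTP + AZD5153, so its AZD5153 libraries lay between the other groups and close together.

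By list, the EGFR and MAPK regions had a median of 0.77 in DTP + AZD5153 against DTP, 17 of 18 with a higher sign, and 0.63 with 14 of 18 and 1 call without replicate 3. The YAP and TEAD list had 0.39 and the AP-1 list 0.40, against 0.15 over all members. Without replicate 3 these were 0.29 for the YAP and TEAD list and 0.03 for the AP-1 list, with 4 of its 8 regions of a higher sign, against 0.14 over all members. Histone gene regions stood on the other side, with -0.50 and 42 of 45 of a lower sign, and -0.30 and 32 of 45 without replicate 3. The median stayed negative with plain library sizes (-0.61), a loess offset (-0.52) and DESeq2 (-0.37). At H1-3, a linker histone gene, levels were 21.5, 29.3 and 19.8 CPM in DMSO, 13.8, 16.5 and 9.95 in DTP and 8.84, 8.84 and 7.22 in DTP + AZD5153. At H1-2, another, they were 27.7, 35.0 and 24.1 CPM in DTP and 35.7, 36.9 and 15.2 in DTP + AZD5153, which overlapped. No region of these lists was called with all libraries.

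Against DMSO, which again is a description, 17 members were called higher and 639 lower in DTP + AZD5153 (17.1% lower), where 9.05% of all regions were called higher and 9.01% lower, with medians of -0.32 over members and 0.23 over all regions. Of the regions inside narrower DMSO peaks, 0.978% were called higher and 11.9% lower. Without replicate 3 of DTP + AZD5153 the members called were 106 higher and 958 lower, and without DMSO replicates 2 or 3 238 or 319 were lower. Libraries did not overlap at 288 members that were higher and 1236 that were lower, where over all annotated regions the shares were 18.6% and 21.1%. The comparison shares its DMSO libraries with that of DTP, and the values of a domain are therefore set side by side above. The lowest domains were ZNF582, B3GALT5, SND1, ABCC4, GALNT15 and DZIP1L, with log2 ratios of -4.63, -3.87, -3.53, -3.35, -3.25 and -3.18. B3GALT5 held 9.32, 26.3 and 16.1 CPM in DMSO and 0.83, 2.38 and 0.32 in DTP + AZD5153. The highest were MTUS1, SNX18 and PAWR, described above, followed by SAMD4A (an RNA-binding repressor), LINC00886 and VSIR (an immune checkpoint receptor) at 1.46, 1.36 and 1.33. Without replicate 3 the ratios of the 6 lowest were -4.14, -3.42, -3.25, -2.89, -3.17 and -2.96, and MTUS1, SNX18 and PAWR went from 2.34, 1.96 and 1.67 to 2.31, 1.44 and 1.07. SAMD4A rested on that library: it held 21.8, 27.5 and 89.1 CPM in DTP + AZD5153, and its ratio was 0.55 without replicate 3, where LINC00886 and VSIR had 1.32 and 1.04. LINC00886 held 19.5, 28.2 and 19.1 CPM in DMSO, 20.4, 47.6 and 23.4 in DTP and 46.4, 65.0 and 59.5 in DTP + AZD5153. Histone genes had 13 of 45 regions called lower against DMSO (18 without replicate 3), and WWTR1 7 of 10.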

How the data were processed

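H3K27ac ChIP-seq libraries of H1975 cells (3 DMSO, 3 DTP, 3 DTP + AZD5153) and 1 pooled input were analysed. The submitters' processing notes name BWA 0.7.17, MACS2 2.2.6, featureCounts 2.0.0, ChIPseeker 1.29.1 and hg38, with no role or order. The deposited counts are whole reads per region of 502 bp, not normalized, and the annotated table holds the regions to which the authors gave a gene and class. The peak lists were called by the authors for each library, with a fold enrichment ratio and −log10 p and q values, of which only positions and, as an alternative, the q values were used. How duplicate reads were treated is not given in the sources used here, nor whether osimertinib continued beside AZD5153. Members and gene lists were chosen with earlier results of these data known.

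Counts of the 9 libraries were fitted together in edgeR 4.0.16 (R 4.3.3; filterByExpr, TMM, robust quasi-likelihood), with Benjamini-Hochberg adjustment over all tested regions and a threshold of 0.05. All 3744 members passed the filter. DESeq2 1.42.0, plain library sizes, a loess offset, other widths, stricter thresholds and leaving out each library were alternatives. The fit was tested on simulated data. Values per library were compared by exact permutation tests, two-sided (scipy 1.17.1). The domain ratio is the log2 ratio of group mean TMM-scaled CPM. Some items are not reported here. P-values measure the spread between these replicates of 1 line.

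Named were the 10 widest domains, the 10 genes with most members, the 6 domains of at least 3 regions with the highest and the 6 with the lowest ratio in each comparison among those whose libraries did not overlap, the list genes with most members, and members called between the treated groups. DCBLD2's other domains, single VMP1 and EGFR domains, LINC00398, H1-2, H1-3 and the microRNAs printed were singled out after their values were seen. Same-numbered libraries of DTP and DMSO deviated together from their group means (correlations over regions 0.334, 0.355 and 0.324). Libraries of unlike number were not compared in this way, so whether the replicate numbers pair them was not tested. With the replicate number as a block, 2 members were called higher and 421 lower.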

Additional observations from a re-analysis of the deposited data

How the results depend on the processing

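The median of members against DMSO was negative under each alternative run, while the numbers called moved. The DMSO libraries chose the members, which favours a negative sign in advance, so the sign is a description only. The exact tests over libraries could not reach 0.05 in this design. For DTP against DMSO, members called higher numbered 0 at an adjusted p of 0.01, 5 with a loess offset, 8 with annotated regions only, 21 with the 6 libraries of both groups, 6 by DESeq2, 0 at 5000 bp and 5 with members at 50% overlap. Those called lower numbered 96 at 0.01, 914 with the 6 libraries, 784 by DESeq2, 875 at 2000 bp and 119 at 5000 bp. With lists of DMSO replicates 1 and 2 and replicate 3 alone as the control the median was -0.227. Leaving out 1 library gave medians of -0.51 to -0.184, 0 to 33 higher and 23 to 1020 lower, the fewest without DMSO replicate 2 and the most without DTP + AZD5153 replicate 3. For DTP + AZD5153 against DTP, DESeq2 called 1 higher and 3 lower, and leaving out 1 library gave medians of -0.0131 to 0.253, 0 to 3 higher and 0 to 6 lower. The share of counts then differed by 0.0685 to 0.531 percentage points and the domains kept by -179 to -32.3. For DTP + AZD5153 against DMSO, higher members numbered 2 at 0.01, 63 with annotated regions only, 44 with the 6 libraries, 41 by DESeq2, 43 at 2000 bp and 1 at 5000 bp, and lower ones 257, 403 with the 6 libraries, 1286 at 2000 bp and 164 at 5000 bp. Leaving out 1 library gave medians of -0.503 to -0.155, 0 to 106 higher and 238 to 958 lower. The cause of these moves was not tested, other than that narrower or wider thresholds change the number of members.

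The replicate block called 9 higher and 657 lower members in DTP + AZD5153 against DMSO and none against DTP. Deviations of same-numbered DTP + AZD5153 libraries correlated at -0.018, 0.553 and 0.362 with DMSO, and at 0.243, 0.026 and -0.240 with DTP. Whether the numbers pair these libraries was not tested. Precision was limited by 3 libraries a group, by the shallow replicate 3 of DTP + AZD5153 and by counts near the limit of 1 read per position.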
